A study of Mus musculus with 12 samples.

Results

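Heat shock was followed in cultured fibroblasts from mouse embryos (MEFs, cells of connective tissue) that lack CHIP, a ubiquitin ligase encoded by Stub1. RNA from 3 heated CHIP-KO libraries was compared with RNA from 3 unheated CHIP-KO libraries. The heated cells had been held for 1 hour at 43 °C and the unheated cells had no treatment, so both groups share the CHIP-KO genotype and, per the labels, differ in heat. Wild-type cells of the same kind, 3 libraries unheated and 3 after the same heat, served for the comparison of genotypes. Genes were kept where at least 3 of these 6 libraries reached 1 FPKM (fragments per kilobase of gene length, scaled to library size), which gave 12140 of the 54532 genes in the table. The same rule applied to the wild-type libraries gave 12294 genes, and 11673 genes met it in both genotypes. The labels name neither the knockout allele nor the number of embryos or lines behind the cells, and whether replicate libraries came from separate cultures is not stated. The p-values below therefore measure the spread between these libraries, which may be technical. In bulk RNA such as this, fewer cells of a type and less RNA per cell cannot be told apart.

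When proteins unfold, heat shock factor 1 (HSF1) is released from chaperones, binds heat shock elements in promoters and switches on the genes of the heat shock response. The products include HSP70, HSP90, HSP40 and small heat shock proteins, which hold or refold damaged proteins, and ubiquitin, which marks them for the proteasome. CHIP sits at the junction of these systems. It binds the tail of HSP70 or HSP90 and attaches ubiquitin to proteins that the chaperones cannot refold. Heat also activates stress kinases that switch on immediate early genes, and severe heat is known to lower transcription and splicing of many other genes.

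Of the 12140 genes, 10656 were protein-coding, 11083 reached 1 FPKM in all 6 libraries, 256 passed through the 3 heated libraries alone and 91 through the 3 unheated libraries alone. By the third-highest of their 6 values, genes just inside the limit were Fuom at 1.001 FPKM and Phf7 and Lurap1, both at 1.003. Just outside were Samd10 at 0.9989, Osbpl6 at 0.9936 and Mok at 0.9932. The 6 libraries held 19953642 to 26954112 fragments. Stub1 stood at 1.17, 1.02 and 0.722 FPKM in the unheated CHIP-KO libraries, at 1.17, 0.996 and 1.06 in the heated ones, and at 53.8 to 64.1 in the 6 wild-type libraries. All 12 fibroblast markers examined were expressed, at 3480 to 3672 FPKM in sum unheated and 4004 to 4218 heated. Of 8 leukocyte markers Cd68 alone passed the limit, of 8 epithelial markers Krt19 alone, and of the 6 endothelial and 6 skeletal muscle markers none. The summed leukocyte markers went from 3.91 to 4.33 FPKM unheated to 8.48 to 10.7 heated, with Tyrobp, Cd3e and Adgre1 among those at 0 throughout, and Cd68, a lysosomal glycoprotein, rose by a log2 change of 1.06. The summed cartilage and bone markers went from 22.8 to 23.5 FPKM to 39.4 to 57.4, carried by the factor Sox9, which rose by 1.39, and the epithelial markers from 10.1 to 10.6 FPKM to 15.6 to 22.3, carried by Krt19. The part of other cell types in the results was not tested. Heated replicate 1 stood apart from the other heated libraries. The chi-square per degree of freedom of its counts was 10.4 against heated replicate 2 and 16.6 against heated replicate 3, and the other pairs within a group gave 3.39 to 4.29.

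Heat moved 3907 genes past an adjusted p of 0.05 in limma's test on log2(FPKM + 1) with Benjamini-Hochberg adjustment over all 12140 genes, 32.2% of them. Of these, 1706 rose (14.1%) and 2201 fell (18.1%). Most changes were small, with a median log2 change of 0.31 among the genes that rose and -0.30 among those that fell. Large changes ran mainly upward. A rise of at least 2-fold was called for 319 genes (2.63%) and a fall of at least 2-fold for 33 (0.272%). At least 8-fold rises numbered 19 and no fall reached 8-fold, and among protein-coding genes alone 29 rose and 0 fell by at least 4-fold. Because 1 was added to each FPKM before the log, the fold changes of low genes are understated. The values of the 2 groups did not overlap for 6045 genes (49.8%), and 3906 of the 3907 called genes were among them. For the 256 genes that passed through the heated libraries alone and the 91 through the unheated alone, the filter itself sets the groups apart. These genes were not taken out of the counts given here. Without replicate 1 of both groups 1611 rose and 1981 fell, 290 and 30 of them by at least 2-fold. The number that rose was 1118 without unheated replicate 2, 1136 without heated replicate 2 and 1016 when all 12 libraries shared 1 estimate of spread, and 1404 fell without unheated replicate 2. Scaling each library to an equal sum of FPKM, in place of the deposited scaling, put the median over all genes at a log2 change of -0.30, with 547 genes rising and 8878 falling, and over genes of at least 200 bases the counts were 857 and 4899. Values given under equal sums below are to be read against that shift.

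**Figure D1:**
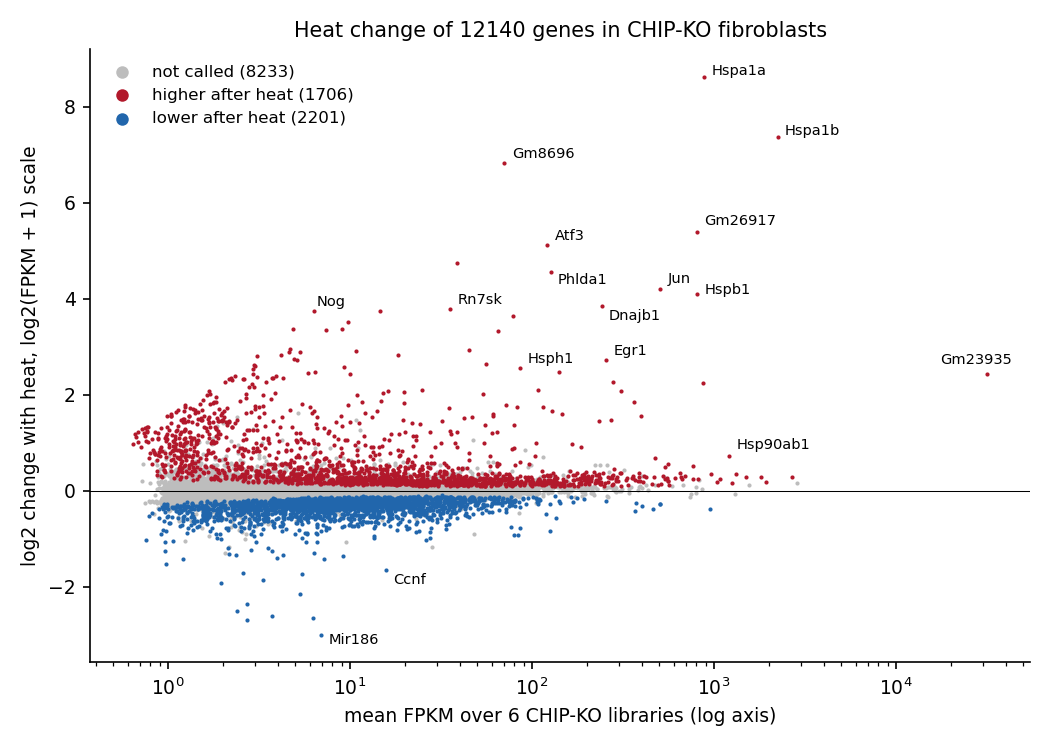
Each point is 1 of 12140 genes, placed by its mean FPKM over the 6 CHIP-KO libraries (horizontal, log axis) and its log2 change with heat (vertical); colours mark the 1706 genes that rose, the 2201 that fell and the rest. The upper tail reaches a log2 change of 8.62 at Hspa1a, and no gene lies below -2.99.

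The strongest rises were those of the inducible HSP70 genes. Hspa1a (ENSMUSG00000091971, GRCm38 chr17:34969190-34972156, minus strand, 1 exon) and Hspa1b (chr17:34956436-34959238, minus strand) are neighbouring, nearly identical genes for the stress form of HSP70, so the way reads were split between them is uncertain. Hspa1a was at 3.54, 3.46 and 3.44 FPKM in the unheated libraries and at 1852, 1890.3 and 1567 in the heated ones. Hspa1b was at 26.5, 24.0 and 27.3 FPKM unheated and at 4714, 4552 and 4060.5 heated. Both genes went from low to very high levels, with every heated library far above every unheated one. The log2 changes were 8.62 (SE 0.071, adjusted p = 2.01e-08) and 7.37 (SE 0.071, adjusted p = 2.67e-08). In the 4 lists of cytosolic chaperones, 26 genes rose. Counts for these and all later lists are to be read beside the 14.1% of all genes that rose and the 18.1% that fell.

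The promoters of several of these genes are shown because heat shock elements in them are what HSF1 reads. Every run shown holds a match, but not every induced chaperone gene had one, as the counts after the runs show. Each run below holds the 250 bases before the RefSeq transcription start, read 5′ to 3′ on the gene's strand, from the RefSeq promoter table on GRCm38.p6. The first 4 were searched on both strands for 3 units of alternating GAA and TTC with 2 free bases between units. Capitals mark matches to that element with at most 1 mismatch, and overlapping matches are joined. In Dusp1, an immediate early gene described further on, capitals mark TGACGTCA, the site of the CREB and ATF family of factors. A match is a description of the letters and does not show binding.
Hspa1a: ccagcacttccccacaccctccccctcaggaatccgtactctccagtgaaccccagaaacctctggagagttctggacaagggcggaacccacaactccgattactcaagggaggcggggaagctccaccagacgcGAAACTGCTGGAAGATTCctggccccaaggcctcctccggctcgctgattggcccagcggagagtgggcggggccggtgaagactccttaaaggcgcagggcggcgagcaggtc
Hspb1: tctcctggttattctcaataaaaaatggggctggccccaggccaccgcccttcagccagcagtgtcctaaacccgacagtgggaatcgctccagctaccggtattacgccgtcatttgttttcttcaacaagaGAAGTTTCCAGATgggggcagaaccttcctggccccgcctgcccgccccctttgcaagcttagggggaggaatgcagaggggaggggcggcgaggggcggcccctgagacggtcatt
Hsph1: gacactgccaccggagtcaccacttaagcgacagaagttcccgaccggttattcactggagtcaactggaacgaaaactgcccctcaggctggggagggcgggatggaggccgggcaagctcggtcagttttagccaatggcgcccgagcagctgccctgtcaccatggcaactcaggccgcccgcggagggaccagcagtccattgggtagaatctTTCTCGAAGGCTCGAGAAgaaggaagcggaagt
Hspe1: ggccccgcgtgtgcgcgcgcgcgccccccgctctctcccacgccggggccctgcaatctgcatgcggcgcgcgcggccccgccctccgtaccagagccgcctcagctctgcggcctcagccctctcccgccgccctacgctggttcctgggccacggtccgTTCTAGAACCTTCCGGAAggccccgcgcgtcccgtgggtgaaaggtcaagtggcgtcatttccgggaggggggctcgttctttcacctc
Dusp1: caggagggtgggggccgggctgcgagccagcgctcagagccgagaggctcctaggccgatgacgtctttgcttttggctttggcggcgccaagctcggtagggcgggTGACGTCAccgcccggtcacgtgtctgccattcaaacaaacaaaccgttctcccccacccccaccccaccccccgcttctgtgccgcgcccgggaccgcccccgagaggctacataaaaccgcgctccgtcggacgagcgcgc

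The Hspa1a run lies at chr17:34972157-34972406, minus strand, with 2 joined matches 114 to 97 bases before the start. The Hspb1 run, at chr5:135887669-135887918 on the plus strand, has 1 match 117 to 105 bases before the start. In Hsph1 (chr5:149636337-149636586, minus strand) 2 joined matches, 0 of them exact, lie 33 to 16 bases before the start. The exact match counted for Hsph1 below lies after the start, beyond the run shown. Hspe1 (chr1:55087898-55088147, plus strand) has 2 joined exact matches 89 to 72 bases before the start, in the stretch it shares with the divergent gene Hspd1. The Dusp1 run lies at chr17:26508473-26508722, minus strand, with its match 143 to 136 bases before the start. Over the window of 250 bases before to 50 after the start, the promoters of Hspa1a and Hspa1b had the same base at 296 of 300 positions. The table matched 8669 of the 12140 genes. With no mismatch the element was in 48 of them (0.554%), in 179 of all 27025 promoters (0.662%) and in 3 of the 103 matched genes that rose at least 2-fold (2.91%), namely Hspe1, Hsph1 and Nnat. Allowing 1 mismatch, a choice made after the values were seen, the element was in 529 of the matched genes (6.1%), in 8.15% of all promoters and in 14 of the 103 (13.6%). It was in 12 of the 21 matched cytosolic chaperone genes that rose (57.1%), among them Dnaja1, Dnaja4, Dnajb4 and Ahsa1. Dnajb1, among the most induced chaperone genes, had 0 matches in each of its RefSeq promoters. Bag3 was also among the matched chaperone genes that rose and lacked the element. Dnaja1 and Hspd1 each had RefSeq promoters with a match and without one. TGACGTCA was in 3.66% of the matched genes, in 2.03% of all promoters, in 7 of the 103 genes that rose at least 2-fold (6.8%) and in 0 of the 21 chaperone genes.

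Among the HSP70 and HSP110 chaperones, 4 of 11 measured members rose and 1 fell, with a median log2 change of 0.04 against -0.0062 over all genes. Besides the inducible pair these were Hsph1, the HSP110 nucleotide exchange factor that helps HSP70 release its clients, and Hspa8, the constitutive cytosolic HSP70. Hsph1 was at 23.3, 23.2 and 23.3 FPKM in the unheated libraries and at 210.3, 128 and 106 in the heated ones, a log2 change of 2.56 (SE 0.23, adjusted p = 7.09e-04, limma). The heated libraries lay well above the tight unheated group but spread widely among themselves, with replicate 1 highest. Hspa8 was already abundant and went from 447, 449 and 455 FPKM to 756, 635 and 619, a log2 change of 0.57 whose call was lost under quantile normalization. The member that fell was Hspa13, a microsomal HSP70, by 0.33 on the log2 scale. Hspa4, another HSP110, was not called, at a log2 change of 0.04.

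Of 15 measured HSP90 genes and co-chaperones, 9 rose and 0 fell, with a median log2 change of 0.27 that came to 0.09 under quantile normalization and to -0.05, with 2 rising and 6 falling, under equal sums. With 1 library left out in turn 5 to 9 rose, and 5 without unheated replicate 1 or 3. Hsp90aa1, the inducible HSP90, was at 202, 195 and 198 FPKM unheated and at 737, 564 and 491 heated (log2 change 1.57, SE 0.14, adjusted p = 6.64e-04, limma). The constitutive Hsp90ab1 went from 922, 894 and 911 FPKM to 1632, 1467 and 1416 (log2 change 0.72), among the 10 largest gains in FPKM of any called gene. Neither gene's groups overlapped. The log2 changes were 0.45 for the HSP90 ATPase activator Ahsa1, 0.40 for the HSP90 partner Chordc1 and 0.31 for Stip1, which joins HSP70 to HSP90. The calls of Ahsa1 and Chordc1 were lost without heated replicate 2 or when any 1 of the unheated libraries was left out.

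HSP40 proteins deliver clients to HSP70, and 6 of the 17 measured rose while 4 fell, with a median log2 change of 0.01. Dnajb1, the main stress-induced HSP40, was at 29.0, 29.7 and 31.6 FPKM unheated and at 519, 465 and 373 heated, a log2 change of 3.85 (SE 0.11, adjusted p = 1.24e-05, limma). The lowest heated library was far above the highest unheated one. Dnajb4, Dnaja1 and Dnaja4 rose by log2 changes of 1.87, 1.795 and 1.69. The falls were smaller, the largest being -0.48 for Dnajb14, which sits in the membrane of the endoplasmic reticulum (ER).

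Small heat shock proteins hold unfolded proteins without using ATP, and BAG factors drive nucleotide exchange on HSP70. In this list 7 of 13 measured genes rose and 0 fell, with a median log2 change of 0.13. Hspb1, the small heat shock protein HSP25 of the mouse, was at 87.0, 82.9 and 86.2 FPKM unheated and at 1966, 1442 and 1175 heated (log2 change 4.11, SE 0.17, adjusted p = 5.63e-05, limma). Bag3, which couples HSP70 and small heat shock proteins to autophagy, was at 36.2, 36.4 and 39.0 FPKM unheated and at 164, 120 and 103 heated (log2 change 1.74). In both genes the groups were far apart and heated replicate 1 was highest. Hspb8, the partner of Bag3, rose by a log2 change of 1.23, and the small heat shock protein Cryab by 0.53.

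**Figure D2:**
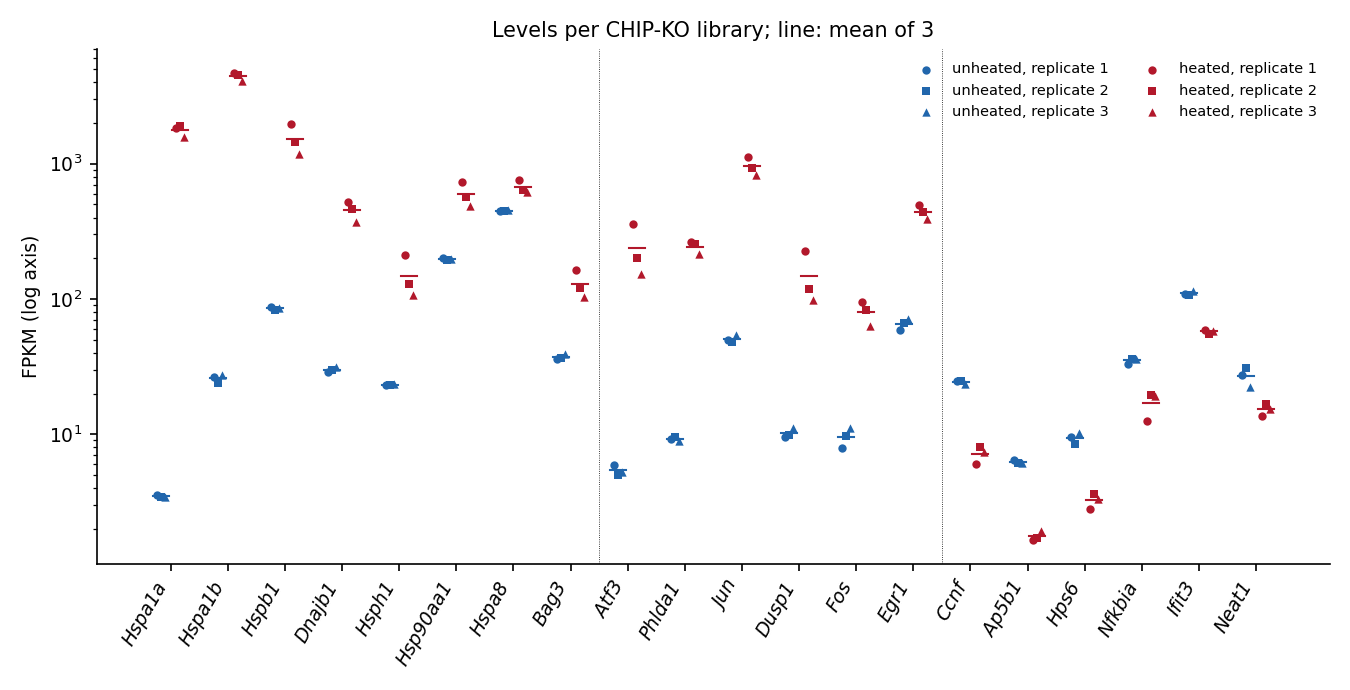
FPKM (log axis) of the named genes in each of the 3 unheated and 3 heated CHIP-KO libraries, 1 point per library with a line at the mean of 3. Heated and unheated points do not overlap for these genes, and the gap is widest for Hspa1a, at 3.44 to 3.54 against 1567 to 1890.3 FPKM.

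Organelle chaperones and the cytosolic chaperonin made up 3 further lists. Of 15 mitochondrial chaperones and proteases 3 rose and 1 fell (20% and 6.67%). Hspe1, the HSP10 lid of the mitochondrial chaperonin, was at 75.0, 72.3 and 68.1 FPKM unheated and at 239, 216 and 205 heated (log2 change 1.60, SE 0.064, adjusted p = 5.17e-05, limma), and its divergent neighbour Hspd1, the HSP60 barrel, rose by a log2 change of 0.91. Of 8 subunits of TRiC, the cytosolic chaperonin that folds actin and tubulin, 5 rose and 0 fell, with a median log2 change of 0.22, and 2 rose when all 12 libraries shared 1 estimate of spread. That median came to 0.0051, with 3 rising, under quantile normalization and -0.12 when each library was scaled to an equal sum, where the median of all genes was -0.30. Cct4 had the largest change of these, 0.25. Of 24 ER folding and unfolded protein response genes 1 rose and 6 fell, shares to be read beside 14.1% and 18.1% of all genes. Under quantile normalization 12 of the 24 fell, beside 2468 of all genes, and 4 rose without heated replicate 1. Herpud1 and Sel1l, both parts of ER-associated degradation, fell by 0.62 and 0.56 on the log2 scale. Hspa5, the ER form of HSP70, fell by 0.14.

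Ubiquitin genes were part of the response. Of 12 ubiquitin genes and stress adaptors 8 rose and 0 fell, with a median log2 change of 0.34 that came to 0.0086, with 3 rising and 3 falling, under equal sums. Ubb, a polyubiquitin gene, rose by a log2 change of 0.69, and Zfand2a, an arsenite-inducible zinc finger protein of the proteasome, by 0.94, a call lost when any 1 of the unheated libraries was left out. The proteasome's own subunits shifted by small amounts, with 12 of 32 rising and 1 falling at a median log2 change of 0.10. Between 4 and 17 rose with 1 library left out. None of the 32 was called when all 12 libraries shared 1 estimate of spread, and under equal sums 32 fell, beside 8878 of all genes. Of 10 measured heat shock factors and regulators 6 rose and 0 fell. Ier5, which promotes HSF1 activity, went from 22.2, 22.6 and 23.8 FPKM to 90.1, 63.2 and 57.4, a log2 change of 1.55. Hsf2, another heat shock factor, rose by 0.31.

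Immediate early genes were among the other large rises. These genes respond within minutes to growth factors and stress kinases and need no new protein. Of 13 AP-1 factors 9 rose and 1 fell, with a median log2 change of 1.15. Atf3, a stress-induced bZIP repressor on chromosome 1, was at 5.94, 4.95 and 5.28 FPKM unheated and at 357, 202 and 153 heated (log2 change 5.13, SE 0.28, adjusted p = 1.53e-04, limma). Jun was at 49.3, 48.3 and 53.9 FPKM unheated and at 1114, 937 and 826 heated (log2 change 4.21, SE 0.11, adjusted p = 6.14e-06). The groups overlapped for neither Atf3 nor Jun. Fos, the partner of Jun, was at 7.92, 9.69 and 11.1 FPKM unheated and at 94.2, 82.8 and 63.0 heated, a log2 change of 2.93. Fosb, Maff and Junb rose by log2 changes of 2.24, 1.54 and 1.48.

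Of 18 measured EGR, NR4A, IER and other immediate early genes 15 rose and 0 fell, with a median log2 change of 1.59. Phlda1, which encodes a pleckstrin-homology-like protein, was at 9.25, 9.60 and 8.95 FPKM unheated and at 264, 253 and 214 heated (log2 change 4.57, SE 0.079, adjusted p = 9.36e-07, limma). Its heated libraries were close together and all far above the unheated ones. Egr1, a zinc finger factor, was at 58.8, 66.6 and 71.3 FPKM unheated and at 494, 442 and 391 heated, a log2 change of 2.73. Arc, best known at synapses, rose by a log2 change of 3.32, Nr4a1, an orphan nuclear receptor, by 2.07 and Myc by 2.01. Ctgf and Cyr61, matrix proteins that YAP and SRF also induce, rose by 2.10 and 2.08.

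Brakes on signalling rose with these genes. Of 15 measured DUSP, Sprouty and Spred genes, which damp MAP kinase signalling, 10 rose and 2 fell, with a median log2 change of 0.86, and 6 rose without unheated replicate 1 or 2. Dusp1, the phosphatase of stress-activated kinases whose promoter is shown above, was at 9.56, 9.86 and 11.2 FPKM unheated and at 224, 119 and 98.1 heated (log2 change 3.64, SE 0.28, adjusted p = 5.03e-04, limma). All heated libraries were far above the unheated ones, and replicate 1 was the highest. Dusp5 and Dusp8 rose by log2 changes of 2.06 and 1.76. Of 13 ZFP36, BTG and GADD45 genes, which slow growth or clear short-lived mRNA, 7 rose and 0 fell, led by Gadd45g at 2.49 and Gadd45b at 1.75, and without unheated replicate 1 the number was 4. Of 11 KLF factors 4 rose, Klf6 most at 2.11, and 2 fell, Klf11 by 0.57, and without unheated replicate 2 the number that rose was 2. Of 14 early targets of BMP, TGF-beta and Notch 7 rose and 3 fell, or 1 fell without heated replicate 2. Nog, which encodes the BMP antagonist noggin, went from 0.802, 0.831 and 1.55 FPKM to 44.3, 21.4 and 18.99 (log2 change 3.74), and the signalling inhibitor Smad7 rose by 1.83. Lfng, which modifies Notch, fell by 0.74.

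**Figure D3:**
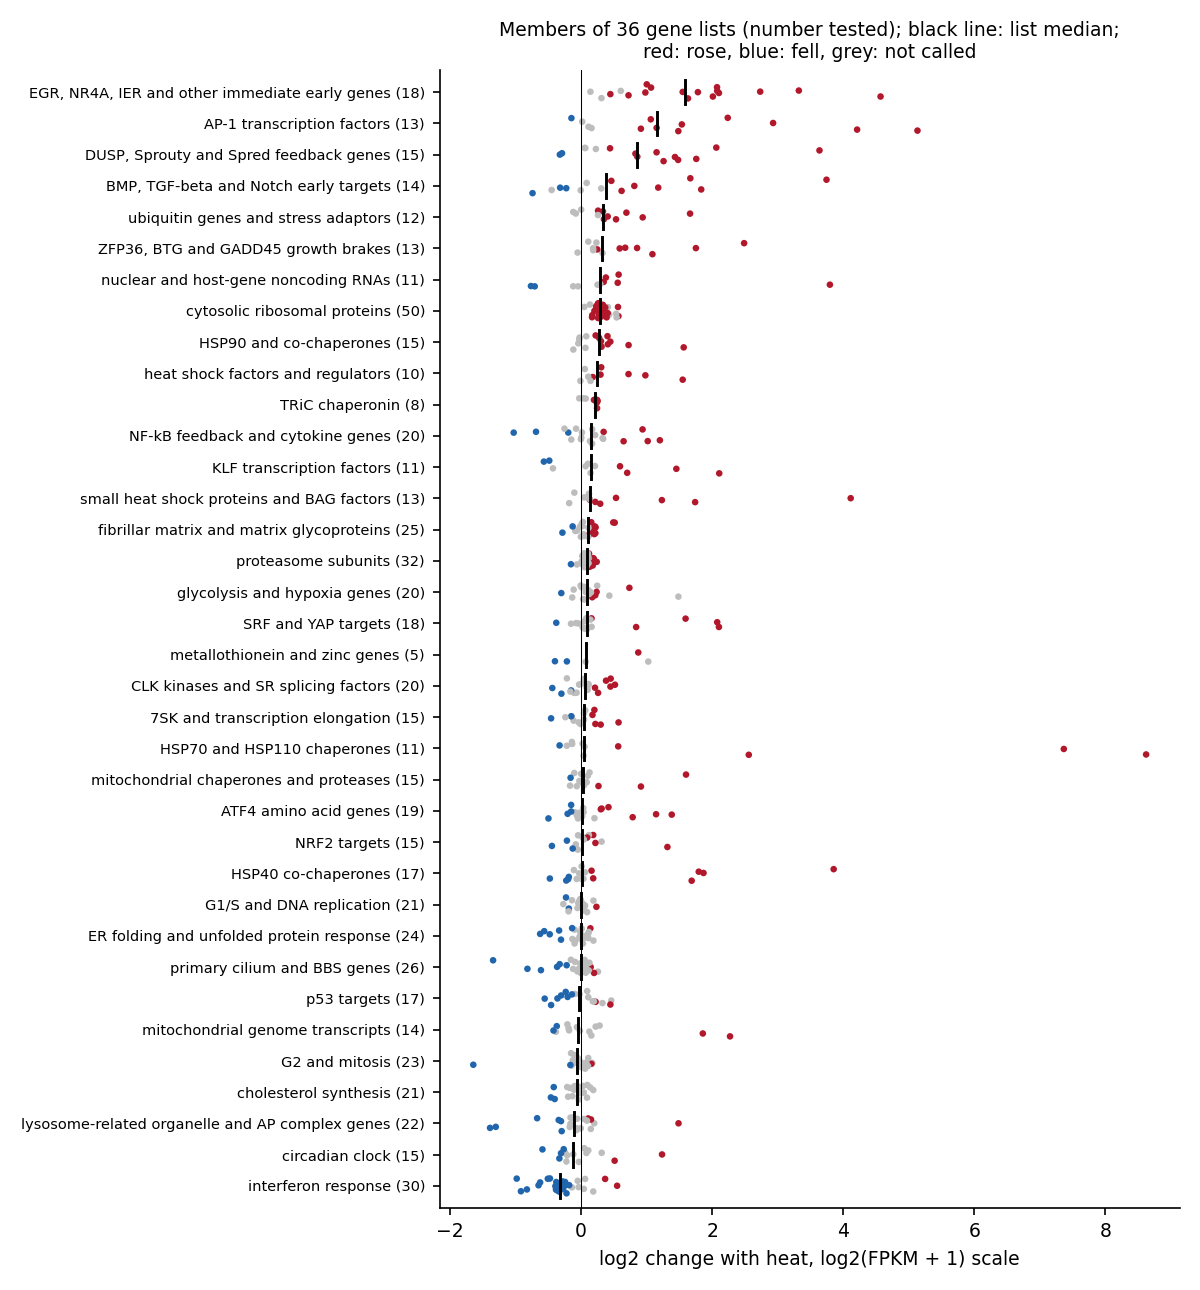
Log2 change with heat (horizontal) of each measured member of 36 gene lists, with the number measured after each name and a black line at the list median; red points rose, blue points fell and grey points were not called. The EGR and AP-1 lists have the highest medians, 1.59 and 1.15, and the interferon list the lowest, -0.32.

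The heated libraries were uneven for these induced genes. Among the 131 protein-coding genes that rose at least 2-fold, heated replicate 1 was the highest heated library in 108 (82.4%), against 40.9% of all 12140 genes. The median log2 change of these 131 genes from the unheated mean was 1.80 in heated replicate 1, 1.36 in replicate 2 and 1.26 in replicate 3. Among the 188 genes that rose at least 2-fold and are not protein-coding, the medians were 1.501, 1.51 and 1.47. Among the 157 protein-coding genes that fell at least 1.5-fold they were -0.76, -0.68 and -0.68. The library was the highest of the heated in 12 of 13 AP-1 genes, 18 of 18 genes of the EGR list and 13 of 13 growth brakes, and in 2 of 8 TRiC subunits. Without replicate 1 of both groups 9 AP-1 genes rose at a median log2 change of 0.93, and 15 genes of the EGR list at 1.33. What sets this library apart was not tested.

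**Figure D4:**
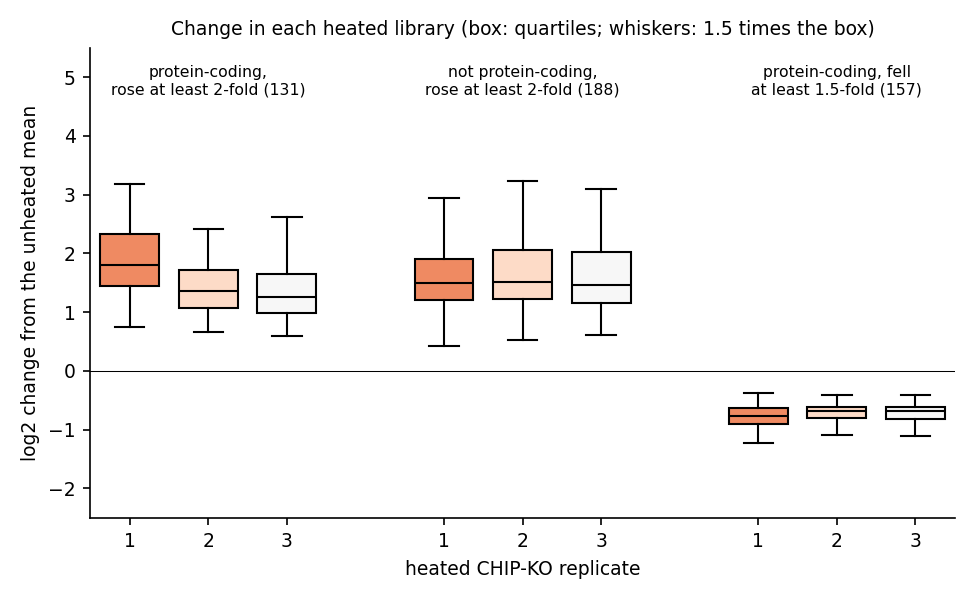
Log2 change from the unheated mean in each heated CHIP-KO library, as boxes over genes, for 131 protein-coding and 188 other genes that rose at least 2-fold and 157 protein-coding genes that fell at least 1.5-fold; boxes span the quartiles and whiskers 1.5 times the box. Among protein-coding risers the median is 1.80 in replicate 1, 1.36 in replicate 2 and 1.26 in replicate 3, and among the other risers they lie between 1.47 and 1.51.

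Stress lists outside the classical response were read beside the 14.1% of all genes that rose and the 18.1% that fell. Of 20 NF-kB feedback and cytokine genes 5 rose and 3 fell (25% and 15%). Nfkbia, which encodes the inhibitor that holds NF-kB in the cytoplasm, was at 33.1, 36.1 and 36.2 FPKM unheated and at 12.5, 19.5 and 19.1 heated (log2 change -1.03, SE 0.16, adjusted p = 0.00409, limma). Its heated libraries all lay below its unheated ones, while the NF-kB feedback genes Nfkbiz and Tnfaip3 rose by log2 changes of 1.20 and 1.02. Of 19 ATF4 amino acid genes 6 rose and 4 fell (31.6% and 21.1%), but 1 fell without heated replicate 2 or when any 1 of the unheated libraries was left out. Cebpb and Ppp1r15a, which restarts translation by reversing eIF2 phosphorylation, rose by 1.38 and 1.14, and the pseudokinase gene Trib3 fell by 0.50. Of 17 p53 targets 2 rose and 7 fell (11.8% and 41.2%), Trp53inp1 by 0.56, but 2 to 5 fell with any 1 library left out. Of 15 NRF2 targets 4 rose and 3 fell (26.7% and 20%), Osgin1 rising by 1.32 and Nfe2l2, which encodes NRF2 itself, falling by 0.45. In this list 1 rose without heated or unheated replicate 2, 2 without unheated replicate 1 or 3, and 1 under quantile normalization, under equal sums and when all 12 libraries shared 1 estimate of spread. The metallothionein Mt1 rose by 0.87, a call lost without unheated replicate 2.

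Interferon-stimulated genes had the lowest median of the 36 lists. Of 30 measured members 22 fell and 2 rose, with a median log2 change of -0.32. Ifit3, which binds viral RNA as part of the IFIT complex, was at 109, 107 and 114 FPKM unheated and at 59.4, 55.5 and 58.2 heated (log2 change -0.92, SE 0.040, adjusted p = 7.66e-05, limma). Ifit1 fell by 0.83 and Irf7, the factor that amplifies interferon, by 0.475 on the log2 scale. The groups of these 3 genes did not overlap. Mx1, an antiviral GTPase, rose by 0.55. The number of members that fell was 18 to 27 under the scaling, weighting and pooling alternatives, and 19 to 23 with 1 library left out.

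The largest single fall of a protein-coding gene was that of Ccnf. This gene, which encodes the cyclin and F-box protein cyclin F of the G2 phase, was at 24.7, 24.6 and 23.7 FPKM unheated and at 6.05, 8.03 and 7.35 heated (log2 change -1.64, SE 0.088, adjusted p = 1.46e-04, limma). In the G2 and mitosis list, to which it belongs, 2 of 23 fell and 1 rose. Ap5b1, a subunit of the AP-5 adaptor of late endosomes, went from 6.44, 6.08 and 6.13 FPKM to 1.65, 1.70 and 1.93 (log2 change -1.39). Hps6, part of the BLOC-2 complex of lysosome-related organelles, went from 9.60, 8.49 and 10.2 FPKM to 2.79, 3.59 and 3.34 (log2 change -1.30). Both genes belong to a list of 22 genes of these organelles and their adaptors. Of the 22, 6 fell and 3 rose (27.3% and 13.6%, beside 18.1% and 14.1% of all genes). Without heated replicate 2 or any 1 of the unheated libraries 1 rose. Ttc30b, which encodes a protein of intraflagellar transport in cilia, fell by 1.34 and Lcmt2, a tRNA modification enzyme, by 1.31. Of the 11 protein-coding genes that fell at least 2-fold, 4 have 1 exon in their longest transcript, as do 590 of the 10656 protein-coding genes measured. Of the 131 that rose at least 2-fold, 16 do. At any fold 14.4% of the 1-exon genes rose and 19.7% fell, near the shares of all protein-coding genes given next. By the table's own transcription factor families, 99 of 348 genes of the C2H2 zinc finger family fell and 28 rose (28.4% and 8.05%), against 19.6% and 12.8% of all protein-coding genes. Of the 816 genes of any family, C2H2 included, 24.4% fell and 13.4% rose. Families differed, since 39.5% of 38 ZBTB genes fell and 7.9% rose, and 12.3% of 73 homeobox genes fell and 27.4% rose.

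Other lists held a few large changes among many small ones. Several had shares near the 14.1% of all genes that rose and the 18.1% that fell. Of 18 targets of SRF and YAP 5 rose and 1 fell, and Amotl2, a scaffold of the YAP pathway, rose by a log2 change of 1.59. Of 20 CLK kinases and SR splicing factors 6 rose and 3 fell, led by a rise of 0.52 in Tra2b, and 1 fell without unheated replicate 1 or 2. Of 15 genes of 7SK and transcription elongation 5 rose and 2 fell, with Brd2, a bromodomain protein, up by 0.57 and Aff4, a scaffold of the elongation complex, down by 0.46, and 3 rose without heated replicate 2 or unheated replicate 1. Of 15 clock genes 2 rose and 4 fell (13.3% and 26.7%), the repressor gene Bhlhe40 rising by 1.24 and Cry2 falling by 0.59. Of 21 cholesterol synthesis genes 0 rose and 3 fell, Hmgcs1 by 0.46, and 6 fell without heated replicate 1. Of 20 glycolysis and hypoxia genes 4 rose and 1 fell (20% and 5%), with Vegfa, the angiogenic growth factor, up by 0.74. Without heated replicate 1 the number that rose was 7. Gapdh, whose many pseudogenes make its reads hard to place, was not called, and its heated replicate 1 stood at 42.6 FPKM beside the other heated libraries at 5.25 and 6.10 (adjusted p = 0.149, limma).

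Abundant structural genes moved by small amounts. Actb, the cytoplasmic actin gene, fell from 1071, 1056 and 1100.1 FPKM to 790, 816 and 878 (log2 change -0.38). Of 25 genes of the matrix list 12 rose and 2 fell at a median of 0.11 on the log2 scale, which became -0.05 with 3 rising and 5 falling under quantile normalization and lay 0.08 above the median of all genes under equal sums. With 1 library left out 5 to 13 rose. The largest rise was that of Serpinh1, the collagen chaperone HSP47, from 633, 606 and 661 FPKM to 989, 873 and 855 (log2 change 0.51), a call lost under quantile normalization and equal sums. Of 50 ribosomal protein genes 44 rose and 0 fell, at a median of 0.29, with reads that their many pseudogenes could share, and 27 rose when all 12 libraries shared 1 estimate of spread. Under quantile normalization 4 of them rose and 4 fell at a median of 0.03, and under equal sums 1 rose and 8 fell at a median of -0.05.

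Across all protein-coding genes the response went with gene length and level. Among 1176 genes spanning under 5 kb 22.9% rose and 15.9% fell. Among 2836 genes of 50 kb and over 8.57% rose and 22.8% fell. Of the 131 genes that rose at least 2-fold 58 spanned under 5 kb and 3 spanned 50 kb and over. Of the 11 that fell at least 2-fold 7 spanned under 5 kb and 1 spanned 50 kb and over, so large changes both ways included many short genes. By level the shares differed by more, since 51.5% of the 377 genes at 100 FPKM and over rose, against 8.25% of those under 5 FPKM. Level was the mean over all 6 libraries, heated ones included, so a rise itself moves a gene toward a higher class. Hspa1a, at 3.44 to 3.54 FPKM unheated, thus counts among genes of 100 FPKM and over. All shares by length and level were counted under the deposited scaling alone. Within genes at 20 to 100 FPKM the share that rose was 21.2% under 5 kb and 13.7% at 50 kb and over, and the share that fell was 10.6% and 26.4%. Within genes at 5 to 20 FPKM the shares that rose were 12% and 9%, and the shares that fell were 23.1% and 28.2%, so that at this level the short genes too fell more often than they rose. Power to call a change also differs with level, and its part in these shares was not tested.

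**Figure D5:**
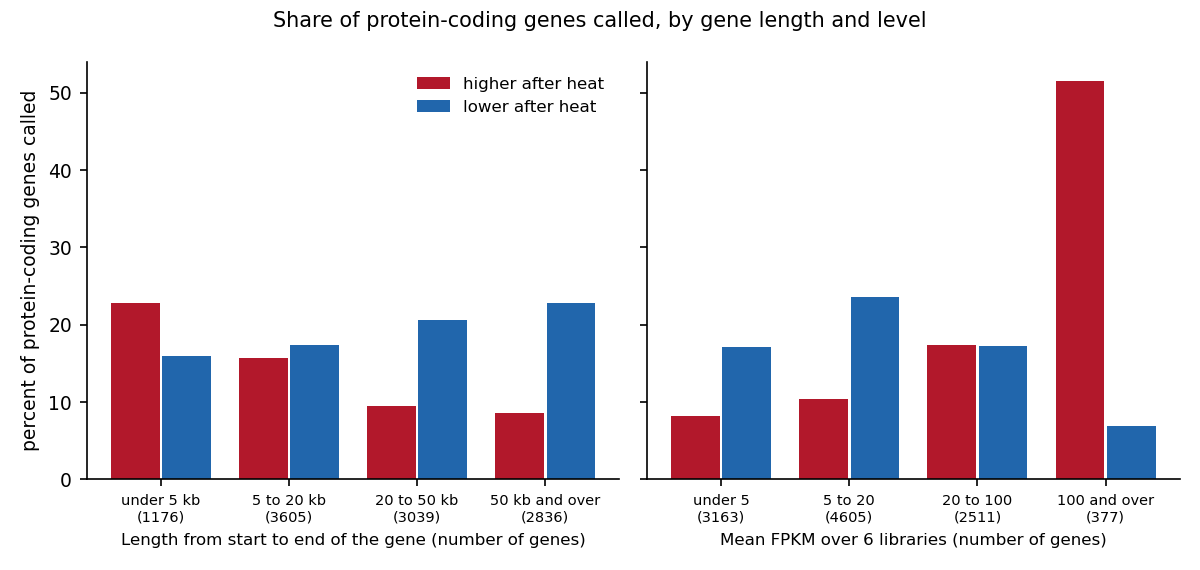
Percent of protein-coding genes that rose or fell with heat (vertical), by the span of the gene and by mean FPKM, with the number of genes under each bar group. Short genes rose more often than they fell (22.9% against 15.9% under 5 kb) and long genes the reverse (8.57% against 22.8% at 50 kb and over).

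Genes that are not protein-coding supplied 188 of the 319 rises of at least 2-fold, although they were 1484 of the 12140 genes. Some of the 188 passed the limit of 1 FPKM through the heated libraries alone, among them Gm8696, Gm20005 and Mir207. For those the filter itself sets the groups apart, and they were not taken out of any count of these genes. The libraries were made by poly(A) capture per the labels' protocols, and many of these RNAs normally lack a poly(A) tail. Of the 188 genes 88 are shorter than 200 bases, as are 308 of the 1484. At such lengths a low FPKM rests on few fragments, so many of these rises are poorly measured. Gm26917, annotated as a long intergenic RNA, was at 30.6, 42.6 and 35.8 FPKM unheated and at 1253, 1669 and 1811 heated (log2 change 5.40, SE 0.16, adjusted p = 1.24e-05, limma). Rn7sk, the RNA that holds the elongation factor P-TEFb inactive, was at 2.05, 5.37 and 3.65 FPKM unheated and at 33.6, 67.6 and 101 heated (log2 change 3.796). Here heated replicate 1 was the lowest of the 3, the reverse of the induced coding genes. The mitochondrial ribosomal RNAs mt-Rnr1 and mt-Rnr2 rose by log2 changes of 2.27 and 1.86. A 57-base gene annotated as a microRNA, Gm23935, took 2.97% to 4.67% of the summed FPKM in the unheated libraries and 12.4% to 17.0% in the heated ones. For Gm26917 and Gm23935, as for Rn7sk, heated replicate 1 was the lowest heated library. Which RNA gave the fragments counted for Gm26917 and Gm23935 was not tested. The sum of FPKM over all genes was 277703 to 280256 per unheated and 345087 to 359482 per heated library.

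Many of these genes overlap others. Of the 188 genes that rose at least 2-fold 142 (75.5%) overlap another gene above the limit, against 701 of all 1484 (47.2%). The overlap is on the same strand for 85 and on the opposite strand for 59 of them. The sources used here do not state whether counting used strand, so reads of such pairs cannot be told apart. An example is Mir207, which lies within Dnaja1 on its strand and rose by a log2 change of 3.51. Others lie beside induced genes, a pattern looked at after the values were seen. Gm8696, a processed pseudogene 1724 bases beyond the 3′ end of Hspa1b on the same strand, was at 0, 0.0962 and 0 FPKM unheated and at 44.1, 166 and 213 heated. Gm20005, which lies 5234 bases before the 5′ end of Hsph1 on the opposite strand, was listed at 0 in the 3 unheated libraries and at 16.9, 10.8 and 10.4 FPKM in the heated ones. Of 783 such genes outside any other measured gene, 13 (1.66%) lay within 10000 bases of a protein-coding gene that rose at least 2-fold, and of the 46 of them that themselves rose at least 2-fold, 7 (15.2%) did.

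Falls among these genes were fewer, 22 of at least 2-fold. Mir186, inside the gene Zranb2 on the same strand, was at 16.3, 13.1 and 9.71 FPKM unheated and at 1.103, 1.47 and 0 heated, a log2 change of -2.99. Mir503 was at 5.63, 5.22 and 5.46 FPKM and listed at 0 in all 3 heated libraries, so it passed the limit through the unheated ones alone. Mature microRNAs are shorter than the fragments that such libraries hold, and which RNA gave these fragments was not tested. Neat1 and Malat1, long RNAs of nuclear bodies, fell by 0.76 and 0.71 on the log2 scale, and the call of Malat1 was lost when all 12 libraries shared 1 estimate of spread.

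The heat change in CHIP-KO cells was then compared with that in wild-type cells, by the interaction of heat and genotype in 1 limma fit over all 12 libraries. The log2 change differed for 4423 of the 12140 genes (36.4%), being higher in CHIP-KO for 2305 (19%) and lower for 2118 (17.4%). Both wild-type replicates 1 stood apart, with limma library weights of 0.182 unheated and 0.161 heated, and without them the counts were 2608 and 2383. Under equal sums they were 1732 and 2743. The strongest induced genes were mostly not among those that differed. Of the 131 protein-coding genes that rose at least 2-fold in CHIP-KO cells, 9 had a higher and 19 a lower log2 change than in wild type, and for 103 the difference did not pass the test. For Hspa1a the difference was 0.23 (SE 0.20, adjusted p = 0.408, limma), with log2 changes of 8.62 in CHIP-KO and 8.39 in wild type. For Hspb1 it was 0.06 (SE 0.33) and for Atf3 -0.01 (SE 0.51). Larger differences also missed the threshold. They were 1.12 for Hsph1 (adjusted p = 0.085, limma), 1.07 for Nog, 0.41 for Dnajb1 and 0.41 for Hspa1b (adjusted p = 0.0541). In the other direction Dusp4 stood at -1.19 (adjusted p = 0.0629, limma). A p that misses the threshold does not show equal induction.

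HSP90 genes and folding machines differed in the positive direction. Of 15 HSP90 genes and co-chaperones 10 had a higher log2 change in CHIP-KO and 0 a lower one. Hsp90ab1 changed by 0.72 in CHIP-KO and by 0.01 in wild type (difference 0.71, SE 0.13, adjusted p = 0.00155, limma), a call lost under quantile normalization and without the filter on low values. Hsp90aa1 changed by 1.57 and 0.58, a difference of 0.98 (adjusted p = 0.0118), and Hspe1 by 1.60 and 0.66, a difference of 0.94 (adjusted p = 6.74e-04). The difference was positive for 8 of 8 TRiC subunits, 30 of 32 proteasome subunits and 23 of 23 genes of G2 and mitosis. For these 3 lists the median log2 changes in wild type were -0.65, -0.59 and -1.06, and in CHIP-KO 0.22, 0.10 and -0.06. The counts stand beside 19% of all genes.

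Interferon and part of the immediate early genes differed in the negative direction. Of 30 interferon genes 27 had a lower log2 change in CHIP-KO and 0 a higher one, with a median of -0.32 in CHIP-KO and 1.13 in wild type. Irf7 changed by -0.475 in CHIP-KO and by 1.98 in wild type, a difference of -2.45 (SE 0.19, adjusted p = 3.63e-06, limma). Egr1 rose in CHIP-KO by 2.73 where its wild-type change was 4.695, and Fos by 2.93 where it was 4.86, with differences of -1.96 and -1.93. Differences for 8 of the 18 genes of the EGR list were negative and 1 was positive. Jun, Atf3 and Phlda1, among the strongest rises, had differences of -0.17, -0.01 and 0.0046, none of them called. The 2 comparisons share no control library, since each genotype has its own unheated group.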

How the data were processed

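RNA-seq of 12 libraries was used, 3 for each of 4 groups of wild-type or CHIP-KO fibroblasts with or without 1 hour at 43 °C. The authors deposited FPKM values per gene, made from HISAT2 alignments per the submitters' processing notes. For the version of HISAT2, the counter, strand use and annotation, nothing is given in the sources used here. Of 54532 gene IDs 54495 are in GENCODE M21, 53585 at the same position, so positions are given on GRCm38. Each FPKM multiplied by its gene's length came out as whole fragments for 100% of values (tolerance 0.01), which gave the fragments per library, and the deposited scaling equalled median-of-ratios size factors. Counts of 0 allow up to 3 fragments, and such floors cover counting error alone. Groups and replicate numbers came from the labels.

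Log2(FPKM + 1), a pseudocount of 1, was fitted with limma 3.58.1 (R 4.3.3, empirical Bayes with a trend) on the 6 CHIP-KO libraries, two-sided, with Benjamini-Hochberg adjustment over 12140 genes and a threshold of 0.05. The interaction used all 12 libraries, a mean per group. Wild-type values come from that fit. The members and the gene lists were chosen with earlier results of these data known. Named genes were, for called protein-coding genes whose higher group averaged at least 2 FPKM, with groups apart and no predicted name, the 20 largest rises and falls, then the 5 largest rises and falls of other genes, the 10 largest gains and losses of FPKM, up to 6 genes per list, all members of the 4 cytosolic chaperone lists, and the 8 largest interactions each way. Genes beside induced genes and in the promoter counts were named after their values were seen. Same-numbered heated and unheated libraries did not deviate together. Alternatives covered the pseudocount, filter, scaling, library weights, voom on recovered fragments, pooling, a replicate block and each library left out. Equal sums over genes of at least 200 bases, and leaving out replicate 1 of both groups, were added after seeing the data. The fits were tested on simulated data. Promoters were matched by symbol. Figures used Python 3.11.15, pandas 2.3.3, numpy 2.4.6 and matplotlib 3.10.9.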

Additional observations from a re-analysis of the deposited data

Results flagged for a closer look

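For 28 named genes the log2 change with heat differed between CHIP-KO and wild-type cells in limma's interaction test over all 12 libraries, which is what marked each of them. Both wild-type replicates 1 stood apart from their groups, and without them all 28 genes kept the direction of the difference and all but Zcchc3 the call. The differences below are the change in CHIP-KO minus that in wild type.

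Of these genes Plxdc2 and Mgp had the most negative differences. The membrane protein gene Plxdc2 changed by a log2 of -0.35 in CHIP-KO and 3.12 in wild type, a difference of -3.47. Mgp, the matrix inhibitor of calcification, changed by 0.17 and 3.39, a difference of -3.22. The differences were -2.82 for the collagen-binding proteoglycan gene Fmod, -2.78 for the CCN family gene Nov and -2.75 for the secreted protein gene Islr. Txnip, the inhibitor of thioredoxin, had a difference of -2.72. Among interferon genes the differences were -2.45 for Irf7, -2.38 for Trim30a, -1.96 for Ifit3 and -1.94 for Ifit3b. The immediate early genes Egr1 and Fos stood at -1.96 and -1.93, and the ephrin gene Efna4 at -0.648.

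Positive differences included genes that moved in opposite directions. Krt19, a keratin, changed by 0.73 in CHIP-KO and -1.67 in wild type, a difference of 2.40, and Ankrd1, a YAP target, by 0.84 and -1.18, a difference of 2.02. The differences were 1.69 for Them6, 1.58 for the creatine kinase gene Ckb, 1.53 for Trib3 and 1.41 for Kpna2, which encodes an importin. The transporter genes Slc25a5 and Slc7a1 both stood at 1.39. Among chaperones they were 0.983 for Hsp90aa1, 0.937 for Hspe1 and 0.71 for Hsp90ab1. Among the largest rises and falls of CHIP-KO cells they were 0.967 for Ccdc194, 0.745 for Ccnf, 0.626 for H2afx and 0.406 for Zcchc3. The call of Zcchc3 was lost without heated or unheated CHIP-KO replicate 2 and without unheated wild-type replicate 1 or 2. The heat changes of Plxdc2, Mgp, Fmod, Nov, Kpna2, Slc7a1 and Them6 within CHIP-KO, all small, lost their calls with some libraries left out, unheated replicate 1 among them for each, and that of Ankrd1 without unheated replicate 3.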

How the results depend on the processing

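The counts as reported were 1706 genes higher and 2201 lower with heat, 319 and 33 of them by at least 2-fold. With all 12 libraries sharing 1 estimate of spread 1016 were higher, and with library weights 2824. Under an equal sum per library 547 were higher and 8878 lower, with 105 lower by at least 2-fold. Under equal sums over genes of at least 200 bases 857 were higher and 4899 lower. A mean of at least 5 FPKM left 115 and 11 genes at 2-fold, and protein-coding genes alone 132 and 11. Falls of at least 2-fold numbered 92 and 50 at pseudocounts of 0.1 and 0.5, and 97 with voom, since these settings shrink the change of low genes less. Leaving out 1 library gave 1118 to 2029 higher and 1404 to 2543 lower, 287 to 327 rises and 30 to 36 falls of 2-fold. The fewest higher and lower came without unheated replicate 2, and without heated replicate 2 there were 1136 higher. With the replicate number as a block 1309 were higher and 1603 lower, but the deviations of same-numbered libraries correlated at -0.0586, -0.0123 and -0.0925, so the number does not pair them. For the difference between genotypes, 2305 positive and 2118 negative as reported, library weights gave 3727 and 3431. Differences of at least 2-fold, 161 and 373, became 249 and 645 at a pseudocount of 0.1 and 255 and 673 with voom. The block gave 1971 and 1844. Of 112 genes named here and called, 89 kept direction and threshold and 108 kept direction in every alternative run. Heat changes turned negative under equal sums for Stip1 (-0.0255), Slc25a5 (-0.121), Mgp (-0.168) and Cct4 (-0.0829), and for Mgp under quantile normalization (-0.0406). Of 28 genes that differed between genotypes all kept direction, and 25 kept the threshold, the others being Ccdc194, Hsp90ab1 and Zcchc3. The cause of these shifts was not tested. Depth was 19953642 to 26954112 fragments per CHIP-KO library, and genes near 1 FPKM are measured least precisely.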
